A study of Mus musculus with 15 samples.

Results

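Laminins are cross-shaped proteins built from an α, a β and a γ chain, and they form the first layer of the basement membrane, the thin sheet of matrix that wraps each cardiomyocyte and underlies the endothelium of the vessels. Nidogens join laminin to type IV collagen, and the heparan sulfate proteoglycans perlecan and agrin tie the sheet to growth factors and to cell receptors. In muscle the laminin with the α2 chain, encoded by Lama2, is known for its contact with dystroglycan and integrin, and its loss causes a muscular dystrophy. The α4 and α5 chains, encoded by Lama4 and Lama5, are known mainly from the basement membranes of vessels.

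The genes described here were the 10 whose symbol in the deposited gene tables is Lama2, Lama4, Lama5, Lamb1, Lamb2, Lamc1, Nid1, Nid2, Hspg2 or Agrn, out of 55401 genes in each table. All 10 had at least 10 expected counts summed over the libraries, as did 26862 of all genes. RNA came from hearts of male C57BL6 mice aged 12 weeks that received isoproterenol, an agonist of β-adrenergic receptors, under the skin at 50 mg/kg/day for 4 days (4 hearts), 8 days (3 hearts) or 11 days (4 hearts), or saline (4 hearts). The sample labels give no number of days for the saline hearts, and the study says only that saline was given for a similar period. Each time was compared with these same saline hearts, and whether their days of dosing matched it is not stated. The study left out 1 heart of the 8-day group for quality, and a replicate letter names each heart here. Bulk tissue of the heart was sequenced, so that fewer cells of a type and less RNA per cell cannot be told apart, and the p-values given below measure only the spread between these hearts. The drug acts on β-adrenergic receptors throughout the body, so the model is not restricted to a cardiac cell type.

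The depth was 25404162 to 117777005 expected counts per library, of which the 10 genes took 28982 to 211284 counts. CT010467.1 and Lars2 together made up 15.8% of 8-day A and no more than 0.0916% of any of the remaining 14 libraries. Cardiomyocyte markers were abundant in every heart, their 10 genes summing to 65475 to 78449 CPM over all groups. Levels within a gene are given as CPM scaled by TMM, read counts relative to the library total, a scaling that sets the bulk of genes equal between libraries, and levels between genes as FPKM, which divides by length.

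The members lie on 8 chromosomes of the GRCm38 build. Lama2 (chr10:26980036-27619758) and Lama4 (chr10:38965515-39110188) share a chromosome, as do Hspg2 (chr4:137468769-137570630) and Agrn (chr4:156165290-156197488). The others were Lama5 (chr2:180176373-180225859), Lamb1 (chr12:31265234-31329644), Lamb2 (chr9:108479736-108490530), Lamc1 (chr1:153218922-153332786), Nid1 (chr13:13437551-13512269) and Nid2 (chr14:19751265-19811787). Nid2 shared 437 exon bases, or 8.45% of its exons, with Rtraf on the opposite strand, which averaged 30.4 CPM against 10.8 CPM for Nid2, and the strand setting of the counting is not given in the sources used here. Antisense genes shared 3.86% of the exon bases of Lama2 and 2.06% of those of Nid1.

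The linker function of the family can be read in the γ1 chain. A stretch of 7 codons in exon 14 of Lamc1, at chr1:153243361-153243381 on the minus strand, encodes the loop to which nidogen is known to bind. It is shown because Lamc1 and Nid1 had the highest fold changes of the members at 4 days. The codons are in capitals, with 15 bases of coding sequence on each side, from the GENCODE M21 transcript Lamc1-201, and the same motif was not matched in Lamc3-201.
Lamc1: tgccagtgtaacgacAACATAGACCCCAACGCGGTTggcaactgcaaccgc

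Agrin is made in splice forms, and some of those with inserts near the C-terminus are the nerve forms that cluster acetylcholine receptors. Agrn-203 differs from Agrn-202 by an insert of 12 bases in exon 30 (chr4:156169546-156169557) and by another of 57 bases over exons 33 to 35 (within chr4:156167779-156168734), both coding and on the minus strand. They are shown because they tell the forms apart, with the inserted bases in capitals and 15 bases on each side.
Agrn 12-base insert: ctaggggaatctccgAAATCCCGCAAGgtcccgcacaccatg
Agrn 57-base insert: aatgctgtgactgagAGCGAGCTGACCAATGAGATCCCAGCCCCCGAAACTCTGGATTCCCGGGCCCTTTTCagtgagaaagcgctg

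In these hearts Agrn-203, which has both inserts, was listed at 0 expected counts in 12 of 15 libraries, and its highest share of Agrn transcripts was 2.95%. Agrn-206, which starts upstream at position 156197488, held 31.0 to 48.0% of Agrn transcripts, and Agrn-202, which starts downstream at 156185901 and lacks both inserts, held 25.6 to 41.4%. Whether Agrn-204, Agrn-205, Agrn-206 or Agrn-207 carries either insert was not examined, so the share of Agrn transcripts with an insert is not known. These shares are the estimates (IsoPct) deposited by the authors, in which reads shared by transcripts are split by a model.

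Promoter sequences, from 250 bases before to 50 after the start, were found in RefSeq (GRCm38.p6) for 7 of the 10 members. Those of Lama5 (chr2:180225810-180226109, minus strand), Nid1 (chr13:13437352-13437651, plus strand) and Lama2 (chr10:27616893-27617192, minus strand) are printed because these genes had unlike time courses. Capitals mark the motifs searched, on both strands: the GC box GGGCGG, the TATA box TATAAA, the CCAAT box CCAAT, the AP-1 motif TGANTCA, the TEAD motif GGAATG and the E box CACGTG. No 2 matches overlap in these 3 windows.
Lama5 promoter: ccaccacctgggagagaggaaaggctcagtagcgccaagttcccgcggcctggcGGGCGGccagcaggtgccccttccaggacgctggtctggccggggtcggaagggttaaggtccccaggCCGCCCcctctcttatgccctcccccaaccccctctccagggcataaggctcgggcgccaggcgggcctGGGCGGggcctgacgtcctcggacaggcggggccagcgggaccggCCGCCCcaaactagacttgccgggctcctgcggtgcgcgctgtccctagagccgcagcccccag
Nid1 promoter: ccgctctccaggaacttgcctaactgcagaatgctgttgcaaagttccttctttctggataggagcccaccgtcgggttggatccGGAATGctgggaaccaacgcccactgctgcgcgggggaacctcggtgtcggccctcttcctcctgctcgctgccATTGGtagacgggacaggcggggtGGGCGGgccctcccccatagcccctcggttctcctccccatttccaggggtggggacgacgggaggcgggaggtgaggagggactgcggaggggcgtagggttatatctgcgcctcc
Lama2 promoter: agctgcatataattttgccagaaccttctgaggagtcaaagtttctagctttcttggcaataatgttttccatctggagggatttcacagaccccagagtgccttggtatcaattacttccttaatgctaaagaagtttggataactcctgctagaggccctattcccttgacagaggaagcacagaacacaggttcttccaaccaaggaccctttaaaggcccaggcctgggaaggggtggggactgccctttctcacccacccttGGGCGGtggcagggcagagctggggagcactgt

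The Lama5 window held 4 GC boxes, 24 CG dinucleotides and 72.7% G and C, more than 93.9% of the 32851 promoters in the table. The Nid1 window held 1 GC box, 1 CCAAT box and 1 TEAD match with 20 CG dinucleotides and 64.7% G and C. The Lama2 window held 1 GC box and a single CG dinucleotide (1) with 50.3% G and C. A GC box was found in 35.7% of all promoters, a CCAAT box in 37.4%, a TEAD match in 14.7%, a TATA box in 13.6%, an AP-1 match in 7.81% and an E box in 7.15%. The Lama2 start in RefSeq lies inside the gene as GENCODE gives it, and another start was not examined.

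Per length, Lamb2, the β2 chain of muscle and vascular laminin, had the highest level of the 10 genes in saline hearts at 73.4 ± 8.88 FPKM (SD, n = 4), and Nid2 the lowest at 2.88 ± 0.82 FPKM. Between them came Hspg2 (34.9 FPKM), Lama2 (25.9), Lamc1 (20.4), Nid1 (14.3), Lamb1 (11.4), Lama4 (11.0), Lama5 (9.79) and Agrn (5.32), all as means of FPKM. In this order the saline hearts of neighbours did not overlap between Lamb2 and Hspg2, Lamc1 and Nid1, and Lama5 and Agrn, and overlapped between all other neighbours. The FPKM of Lamb2 depends on a transcript of 332 bases, Lamb2-204, to which 7.82 to 41.4% of Lamb2 transcripts were assigned. With counts divided by the longest transcript of each gene, an alternative chosen after seeing the data, Lamb2 (36.4 CPM per kilobase) and Hspg2 (30.4) overlapped in saline hearts.

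Lama5 rose at every time. It had 103, 110, 123 and 118 CPM in saline hearts, 163, 178, 242 and 150 CPM at 4 days, 170, 184 and 212 CPM at 8 days, and 205, 189, 193 and 210 CPM at 11 days. Every isoproterenol heart lay above every saline heart, and the highest of all was 4-day C. Isoproterenol hearts averaged 183 ± 40.7 CPM at 4 days (SD, n = 4), 189 ± 21.5 CPM at 8 days (n = 3) and 199 ± 9.96 CPM at 11 days (n = 4), against 114 ± 9.09 CPM in saline hearts (n = 4). The log2 fold change was 0.69 at 4 days (SE 0.13, adjusted p = 0.00486), 0.72 at 8 days (SE 0.10, adjusted p = 0.00253) and 0.80 at 11 days (SE 0.08, adjusted p = 0.000118) (edgeR, quasi-likelihood, with p adjusted over all genes by Benjamini and Hochberg). The 11-day and 4-day hearts were not distinguished, with a log2 difference of 0.12 and a 95% interval of -0.14 to 0.37. Without 4-day C that difference was 0.28 and passed the test (adjusted p = 0.0485). With library size in place of TMM the 8-day value was 0.67 and missed the threshold (adjusted p = 0.0765).

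**Figure D1:**
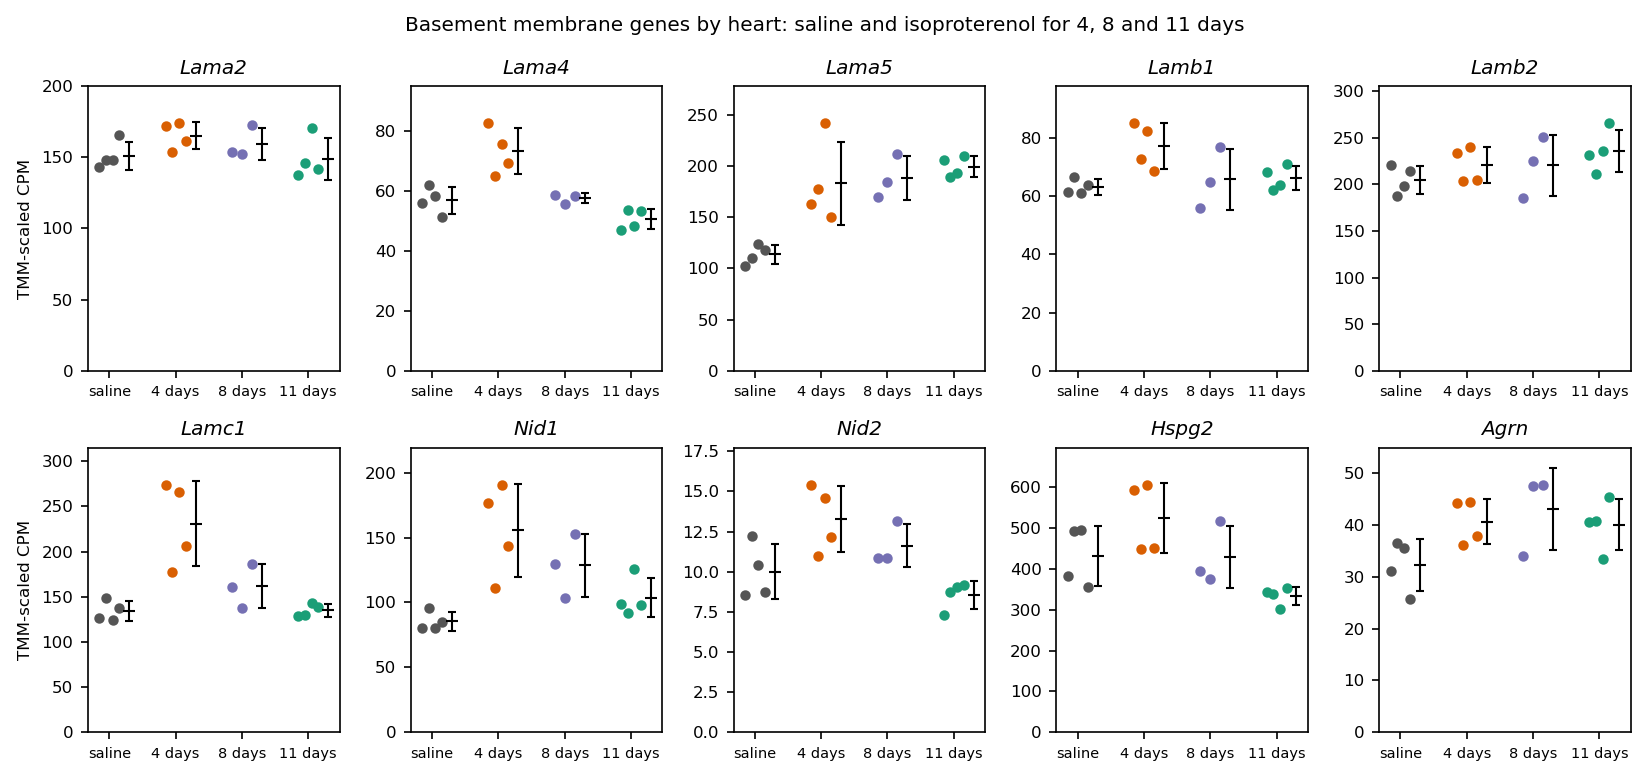
Level of each member by heart. The vertical axis is TMM-scaled CPM from 0 and the horizontal axis the group, each coloured point is 1 heart, and the black dash with its bar is the group mean with its SD. Lama5 stays between 150 and 242 CPM in every isoproterenol heart, while Lamc1 and Nid1 are highest at 4 days.

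The α2 chain of the cardiomyocyte basement membrane did not pass the test at any time. Lama2 had 143, 148, 148 and 165 CPM in saline hearts, 172, 154, 174 and 161 CPM at 4 days, 153, 153 and 172 CPM at 8 days, and 137, 146, 170 and 142 CPM at 11 days. The groups overlapped at each time, and the log2 fold changes were 0.13 (95% interval -0.04 to 0.31), 0.07 (-0.13 to 0.27) and -0.03 (-0.21 to 0.15). With effective lengths as offsets the values at 4 and 8 days were -0.05 and -0.07.

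Lama4, which encodes a chain of vascular laminin, was higher at 4 days and not later. It had 56.0, 62.0, 58.2 and 51.4 CPM in saline hearts, 82.6, 65.1, 75.7 and 69.2 CPM at 4 days, 58.7, 55.8 and 58.5 CPM at 8 days, and 47.1, 53.6, 48.5 and 53.3 CPM at 11 days. All 4-day hearts lay above all saline hearts, and the 8-day and 11-day hearts overlapped saline. The log2 fold change at 4 days was 0.37 (SE 0.09, adjusted p = 0.0262, edgeR). It missed the threshold without saline A (edgeR adjusted p = 0.0754), saline D (0.0697), 4-day A (0.116) or 4-day C (0.076). The later log2 fold changes were 0.01 at 8 days and -0.18 at 11 days, with edgeR's adjusted p at 0.976 and 0.264.

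Per length, Lama5 took 28.6 ± 3.4% of the summed FPKM of the 3 α chains at 4 days (SD, n = 4), 30.9 ± 1.3% at 8 days (n = 3) and 32.8 ± 2.6% at 11 days (n = 4), against 20.9 ± 1.5% in saline hearts (n = 4). The lowest isoproterenol heart had 25.7% and the highest saline heart 22.5%. Lama2 remained the most abundant α chain by this measure, at 45.9 ± 1.7% at 4 days, 47.6 ± 0.93% at 8 days and 48.2 ± 3.2% at 11 days, against 55.5 ± 4.6% in saline hearts. With counts per kilobase of the longest transcript, also chosen after seeing the data, Lama5 reached 42.4 ± 2.5% at 11 days, against 37.4 ± 2.9% for Lama2 in the same hearts. Which of them was the more abundant at 11 days thus depended on the length used.

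**Figure D2:**
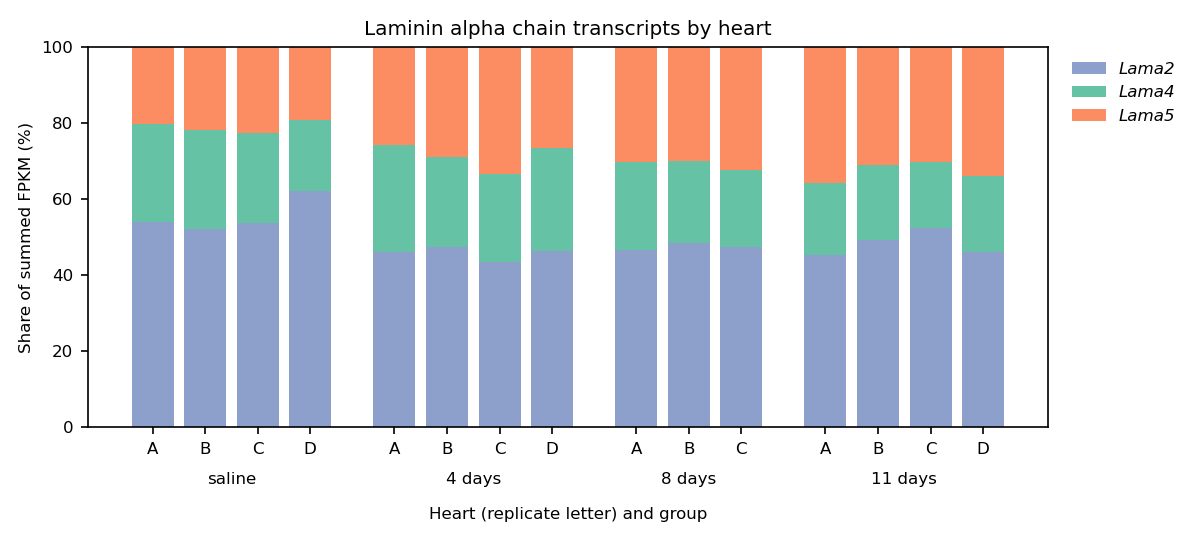
Share of each laminin α chain by heart. Each bar is 1 heart, its height is the summed FPKM of Lama2, Lama4 and Lama5 set to 100%, and the coloured segments are the shares. The Lama5 segment is 19.2 to 22.5% in saline hearts and 25.7 to 35.8% in isoproterenol hearts.

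In 7 ratios between members, taken within each heart as log2 of the FPKM ratio, 0 of 21 tests against saline passed an exact two-sided permutation test after adjustment over the 21. The smallest p that 4 against 4 hearts allow is 0.0286 and that 3 against 4 allow is 0.0571, and 6 tests reached an unadjusted p of 0.0286 (adjusted p = 0.1). A ratio could therefore not pass on its own after adjustment over the 21, and the count of 0 does not show unchanged ratios. For Lama5 over Lama2 the log2 ratio was -0.69 ± 0.21 at 4 days, -0.62 ± 0.07 at 8 days and -0.56 ± 0.21 at 11 days, against -1.41 ± 0.20 in saline hearts, and every isoproterenol heart lay above every saline heart. Lama5 over Lama4 differed from saline by 0.95 at 11 days and by 0.32 at 4 days, where the hearts overlapped (exact permutation p = 0.0286 and 0.143). Nid1 over Nid2 was higher than in saline by 0.48, 0.74 and 0.72 at 4, 8 and 11 days, and Agrn over Hspg2 by 0.07, 0.45 and 0.70. From expected counts in place of FPKM, Nid1 over Nid2 differed by 0.42, 0.35 and 0.49, and its 8-day hearts then overlapped saline. Nid1 over Lamc1 was above saline in every 8-day heart (0.27, and 0.31 from counts). At 11 days it overlapped saline in FPKM (0.17), while from counts all 11-day hearts were above saline (0.26). Lamb1 over Lamb2 overlapped saline at each time in both measures.

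Of the β chains, neither passed the test at any time. Lamb1, the β1 chain found in most basement membranes, had 61.2, 66.6, 60.8 and 63.8 CPM in saline hearts, 84.9, 72.5, 82.3 and 68.5 CPM at 4 days, 55.8, 64.8 and 76.6 CPM at 8 days, and 68.1, 62.1, 63.6 and 71.0 CPM at 11 days. All 4-day hearts were above all saline hearts, and the log2 fold change of 0.29 (SE 0.09) lay at an adjusted p of 0.0505 by edgeR. Other settings put that p between 0.0146 and 0.21. The 4-day value passed with DESeq2 (adjusted p = 0.0146) and limma voom (0.0292). By edgeR it passed with library size only, with library size without mitochondrial transcripts and with a filter on CPM. It also passed with robust dispersions, with all groups in one fit, and without 4-day B or 4-day D. Lamb2 had 221, 188, 198 and 214 CPM in saline hearts, 234, 203, 240 and 205 CPM at 4 days, 186, 225 and 250 CPM at 8 days, and 231, 211, 236 and 265 CPM at 11 days. Its groups overlapped, and its log2 fold changes were 0.11, 0.10 and 0.20 (adjusted p = 0.549, 0.785 and 0.253, edgeR).

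Lamc1, the γ1 chain shared by nearly all laminins of the heart, and Nid1, its binding partner, had the highest fold changes of the members at 4 days. Lamc1 had 126, 149, 124 and 137 CPM in saline hearts, 274, 177, 266 and 207 CPM at 4 days, 161, 138 and 187 CPM at 8 days, and 128, 130, 143 and 139 CPM at 11 days. The 4-day hearts were all above the saline hearts and the 11-day hearts lay within the saline range. Lamc1 averaged 231 ± 46.7 CPM at 4 days, against 134 ± 11.4 CPM in saline hearts (SD, n = 4 each), a log2 fold change of 0.79 (SE 0.13, adjusted p = 0.00205, edgeR). The log2 fold change was 0.26 at 8 days (adjusted p = 0.328, edgeR) and 0.00 at 11 days, with a 95% interval of -0.17 to 0.17.

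Nid1 had 80.0, 95.8, 80.7 and 85.2 CPM in saline hearts, 177, 111, 191 and 143 CPM at 4 days, 129, 104 and 153 CPM at 8 days, and 99.2, 92.0, 126 and 98.0 CPM at 11 days. Hearts of the 4-day and 8-day groups were all above the saline hearts, and 11-day B lay below saline B. The log2 fold change was 0.87 at 4 days (SE 0.14, adjusted p = 0.00192), 0.59 at 8 days (SE 0.12, adjusted p = 0.0232) and 0.27 at 11 days (SE 0.10, adjusted p = 0.168), by edgeR. The 8-day call was lost without saline A (adjusted p = 0.0766), 8-day A (0.0819) or 8-day C (0.143), and with library size in place of TMM (0.36). The log2 value without 8-day C was 0.44.

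Nid2, the nidogen of lower abundance, had 8.57, 12.2, 10.4 and 8.74 CPM in saline hearts, 15.4, 11.0, 14.6 and 12.1 CPM at 4 days, 10.8, 10.9 and 13.2 CPM at 8 days, and 7.29, 8.73, 9.07 and 9.15 CPM at 11 days. Saline B lay above 2 of the 4-day hearts. The log2 fold changes were 0.42 at 4 days, 0.21 at 8 days and -0.23 at 11 days, none of which passed (edgeR adjusted p = 0.0646, 0.563 and 0.348). The 4-day value passed with DESeq2 (adjusted p = 0.0395), limma voom (0.0262), library size only (0.0304), no filter (0.0349) and all groups in one fit (0.0323), and with edgeR without saline B (0.0182) or 4-day B (0.0234). With effective lengths as offsets the 8-day value was -0.19. The part of Rtraf reads in these values was not tested.

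Hspg2, which encodes perlecan, had the most counts of the members. It had 382, 493, 494 and 354 CPM in saline hearts, 592, 449, 605 and 450 CPM at 4 days, 394, 375 and 515 CPM at 8 days, and 344, 337, 301 and 352 CPM at 11 days. All 11-day hearts lay below all saline hearts, although saline D was only slightly higher than 11-day D. The log2 fold changes were 0.29 at 4 days, -0.01 at 8 days and -0.38 at 11 days, none of which passed (edgeR adjusted p = 0.252, 0.986 and 0.0807). Without saline D the 11-day value was -0.45 (adjusted p = 0.0281), and DESeq2 gave -0.38 (adjusted p = 0.0166).

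Agrn had 31.1, 36.5, 35.6 and 25.6 CPM in saline hearts, 44.1, 36.0, 44.4 and 37.8 CPM at 4 days, 33.9, 47.3 and 47.7 CPM at 8 days, and 40.5, 40.6, 33.4 and 45.3 CPM at 11 days. In each isoproterenol group 1 heart, 4-day B, 8-day A or 11-day C, lay within the saline range. The log2 fold changes of 0.34, 0.41 and 0.30 at 4, 8 and 11 days had 95% intervals above 0 but adjusted p of 0.0924, 0.19 and 0.186 by edgeR. The 4-day value passed with library size only (edgeR adjusted p = 0.0462) and with limma voom (0.0385). The share of Agrn-206 was 41.6 ± 0.94% at 4 days, 40.7 ± 6.3% at 8 days and 44.1 ± 1.7% at 11 days, against 37.3 ± 4.4% in saline hearts (exact permutation p = 0.0571, 0.571 and 0.0286, all with an adjusted p of 0.429 or more over 30 tests). Of these 30 tests, of the main transcript of each member at each time, 0 passed. The smallest exact permutation p is 0.0286 for 4 against 4 hearts and 0.0571 for 3 against 4. A test could therefore not pass on its own after adjustment over 30, and the count of 0 does not show unchanged shares. For Lamb1 the main transcript, Lamb1-208, took 0 to 97.2% of Lamb1 transcripts from heart to heart, against 0.14 to 94.8% for the near-identical Lamb1-201, so that their shares cannot be told apart from how reads were split.

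At 4 days 4 of the 10 members rose (Lama4, Lama5, Lamc1 and Nid1), against 6.05% of the 26862 genes tested that were called higher. At 8 days 2 of 10 rose (Lama5 and Nid1), against 1.07% of all genes, and at 11 days 1 of 10 (Lama5), against 1.8%. The median log2 fold change of the members was 0.35, 0.16 and 0.03 at 4, 8 and 11 days, and that of all genes tested was 0.01, -0.01 and -0.01. Hearts of the isoproterenol group all lay above the saline hearts for 5 members at 4 days, 2 at 8 days and 1 at 11 days, against 8.0%, 6.88% and 5.85% of all genes. Hspg2 was the 1 member with all 11-day hearts below saline, as were 4.77% of all genes. These comparisons share the saline hearts. With library size in place of TMM 7 members were called at 4 days and 0 at 8 days, and the median over all genes at 4 days was then shifted to 0.21. That scaling also moved the split of all calls, to 2533 higher and 293 lower at 4 days, against 1626 and 914 with TMM, and to 415 higher and 220 lower at 11 days, against 483 and 523.

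**Figure D3:**
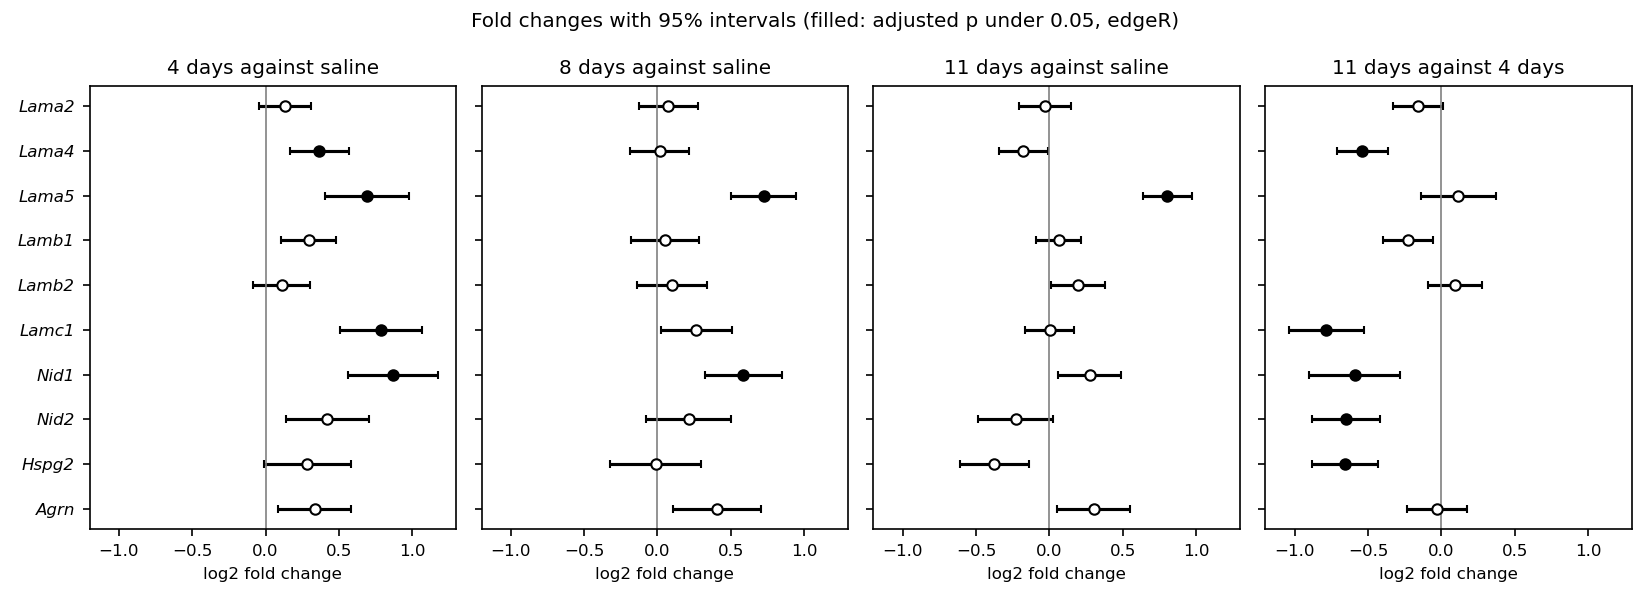
Log2 fold change of each member with its 95% interval. The panels are 4, 8 and 11 days against saline and 11 days against 4 days, and filled points have an adjusted p under 0.05. Lama5 is filled in each panel against saline and unfilled, at 0.12, in the panel of 11 days against 4 days.

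Between times, 5 of 10 members were lower at 11 days than at 4 days, against 6.55% of all genes. The log2 differences of 11 days against 4 days were -0.54 for Lama4 (adjusted p = 0.00122), -0.78 for Lamc1 (0.00122), -0.59 for Nid1 (0.0188), -0.65 for Nid2 (0.00224) and -0.66 for Hspg2 (0.00178), by edgeR. The Nid1 difference missed the threshold without 4-day A, 4-day C, 11-day A, 11-day B or 11-day D, with values of -0.53, -0.48, -0.56, -0.53 and -0.55, and with robust dispersions. Of the other members, Lama5 (0.12), Lamb2 (0.09) and Agrn (-0.03) had differences near 0, while Lama2 (-0.16) and Lamb1 (-0.23) were lower without passing. For 8 days against 4 days and for 11 days against 8 days edgeR called 0 members, against 0.19% and 0.0782% of all genes called lower. At an unadjusted p under 0.05 by edgeR these counts were 2 and 5, all lower at the later time, against 7.53% and 5.35% of all genes lower at that p. DESeq2 called 2 members lower in each, against 1.38% and 0.369% of all genes. Over the 4 groups in one test, 6 of 10 members changed (Lama4, Lama5, Lamc1, Nid1, Nid2 and Hspg2), against 13.0% of all genes.

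The other laminin chains, which form the laminins of epithelia and of development, had few counts, with summed levels of 9.53 to 12.5 CPM in any heart. Lama3, with 4.28 CPM at 4 days, 4.62 CPM at 8 days and 3.88 CPM at 11 days, against 2.09 CPM in saline hearts, rose at each time (log2 fold change 1.03, 1.14 and 0.87). Lamb3, which pairs with Lama3 in the laminin of skin, fell by 1.05, 1.22 and 0.83 on the log2 scale. Lamc3 fell at 4 days, to 0.0761 CPM against 0.32 CPM in saline hearts, and did not pass later (0.346 CPM at 8 days and 0.141 CPM at 11 days), and Lama1 stayed under 0.1 CPM on average in each group. Adjusted p of the calls of Lama3 and Lamb3 ran from 0.000703 to 0.00354 by edgeR.

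Of 8 basement membrane collagens, 6 rose at 4 days, 1 at 8 days and 0 at 11 days, and 6 were lower at 11 days than at 4 days. Their median log2 fold change was 0.77, 0.40 and 0.06 at 4, 8 and 11 days. Col4a1, which pairs with Col4a2 in the main collagen IV network, averaged 408 ± 86 CPM at 4 days, 283 ± 63 CPM at 8 days and 218 ± 14 CPM at 11 days, against 198 ± 46 CPM in saline hearts, and Col4a5 rose at 4 days by 0.71 (adjusted p = 0.000723, edgeR). Col15a1, a collagen of capillary and muscle basement membranes, rose at 4 days by 1.06 and Col18a1, the source of endostatin, rose at 4 days (adjusted p = 0.00274, edgeR) and by 0.79 at 8 days. Among 16 other basement membrane components 5 rose and 2 fell at 4 days. The matricellular protein gene Sparc (1.66), Fbln2 (1.42) and Fras1 (1.75) rose at 4 days, and Egflam, which encodes the dystroglycan ligand pikachurin, fell by 1.05, 0.73 and 0.65 at 4, 8 and 11 days. Fras1 had few counts, at 0.745 to 1.16 CPM at 4 days against 0.294 to 0.324 CPM in saline hearts.

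Few receptors of laminin passed the test, and among the integrin chains and Bcam only between times. Of 6 genes, 5 integrin chains and Bcam, the Lutheran antigen that binds the α5 chain, 0 passed against saline at any time, their log2 fold changes lying between -0.19 and 0.48. Bcam had 93.7 ± 6.0 CPM at 4 days, 84.5 ± 2.3 CPM at 8 days and 74.3 ± 3.8 CPM at 11 days, against 81.4 ± 7.1 CPM in saline hearts, and was lower at 11 days than at 4 days by 0.34 (adjusted p = 0.00666). Itgb1 was also lower at 11 days than at 4 days (-0.26, adjusted p = 0.0213), by edgeR. Of 11 genes of the dystroglycan and dystrophin complex 0 passed at 4 days, their log2 fold changes lying between -0.31 and 0.28. At 8 days and at 11 days 1 of them rose against saline, the highest log2 fold changes of the list being 0.47 and 0.45. Between times, 1 was higher at 11 days than at 4 days. Dag1, which encodes dystroglycan itself, had 178 to 185 CPM at 4 days, 179 to 201 CPM at 8 days and 174 to 206 CPM at 11 days, against 188 to 202 CPM in saline hearts. Of the 4 genes of the agrin receptor complex, Lrp4, Musk, Dok7 and Rapsn, 0 passed against saline, and Musk averaged 0.125 to 0.223 CPM in the 4 groups.

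**Figure D4:**
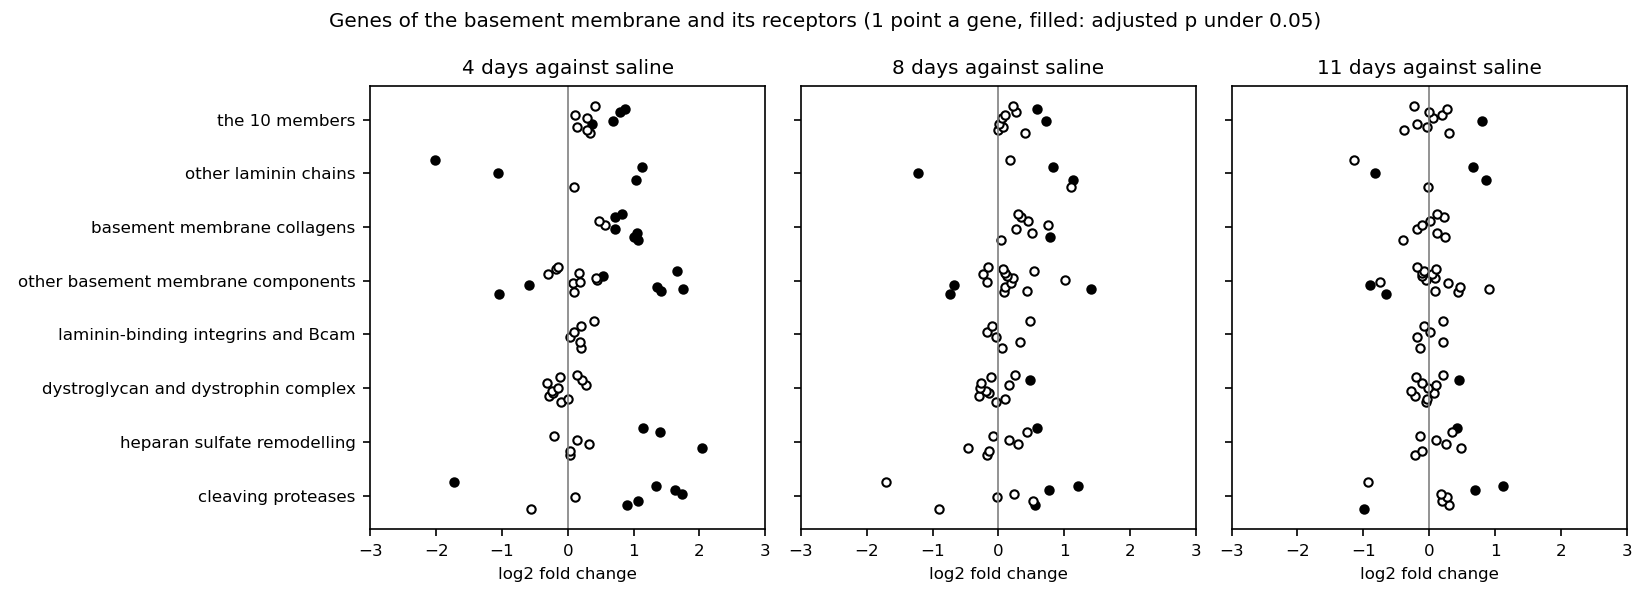
Log2 fold change of the members and of other genes of the basement membrane and its receptors. Each row is a list, each point 1 gene, and filled points have an adjusted p under 0.05. At 4 days 4 of the 10 members and 6 of 8 basement membrane collagens are filled on the right, and no integrin or Bcam point is filled at any time.

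Several enzymes that act on these proteins rose. Of 8 genes that remodel heparan sulfate chains, the sulfatases Sulf1 (1.40) and Sulf2 (1.14) and the heparanase Hpse (2.03) rose at 4 days, and Sulf2 was still higher at 8 and 11 days (0.59 and 0.43). Hpse had few counts, at 0.411 to 1.45 CPM at 4 days against 0.169 to 0.353 CPM in saline hearts. Of 8 proteases that cleave basement membrane, 5 rose and 1 fell at 4 days. Mmp2, a gelatinase, had 55.3 ± 16 CPM at 4 days, 50.9 ± 15 CPM at 8 days and 47.8 ± 12 CPM at 11 days, against 22.0 ± 3.1 CPM in saline hearts, and rose at each time. Bmp1, which processes laminin chains and perlecan, rose at 4 days by 1.07 (adjusted p = 0.000588, edgeR), as did Adamts5 (0.90) and Mmp14 (1.63).

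Markers of fibroblasts were higher at 4 days, as were Lamc1 and Nid1. All 10 fibroblast markers rose at 4 days, 4 at 8 days and 2 at 11 days, and their summed level was 1183 to 4329 CPM at 4 days, 665 to 1290 CPM at 8 days and 532 to 1012 CPM at 11 days, against 405 to 524 CPM in saline hearts. Among the 4-day hearts that sum was 4329 CPM in A, 1183 CPM in B, 3190 CPM in C and 2770 CPM in D. Lamc1, at 274, 177, 266 and 207 CPM, had the same order. So did Lama4 (82.6, 65.1, 75.7 and 69.2 CPM) and Nid2 (15.4, 11.0, 14.6 and 12.1 CPM). The summed macrophage markers (365, 219, 363 and 271 CPM) also had it, so the order was not particular to fibroblast markers. Lama2, Lamb1, Lamb2, Hspg2 and Agrn did not have it. Nid1, at 177, 111, 191 and 143 CPM, did not have the order of the sum, being highest in 4-day C. The sum weighs abundant genes most, Col3a1 alone having 2351 CPM in 4-day A. The fibroblast markers Tcf21, Ddr2 and, by a narrow margin, Pdgfra had the order of Nid1. Col1a1, Col1a2, Col3a1, Dcn, Dpt and Mfap5 had that of the sum, and Lum had neither. Lama5 did not have the order of the sum either, being highest in 4-day C (242 CPM) and lowest in 4-day D (150 CPM). Its 11-day hearts, with fibroblast sums of at most 1012 CPM, were above 3 of the 4-day hearts. Of 8 markers of activated fibroblasts 6 rose at 4 days, 2 at 8 days and 0 at 11 days, and of 10 macrophage markers 8, 0 and 1. Endothelial markers did not pass at any time (0 of 10), summing to 392 to 430 CPM at 4 days, 438 to 491 CPM at 8 days and 416 to 478 CPM at 11 days, against 378 to 502 CPM in saline hearts. The 6 epicardial markers summed to at most 3.15 CPM in any heart, with Krt19, Upk1b and Lrrn4 under 0.1 CPM on average in each group. Of 10 mural markers 1 rose and 2 fell at 4 days and 1 fell at 8 days, of 10 cardiomyocyte markers 2 rose and 1 fell at 4 days, and of 6 Schwann cell markers 1 fell at 11 days. The part of these cell types in the members' levels was not tested.

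**Figure D5:**
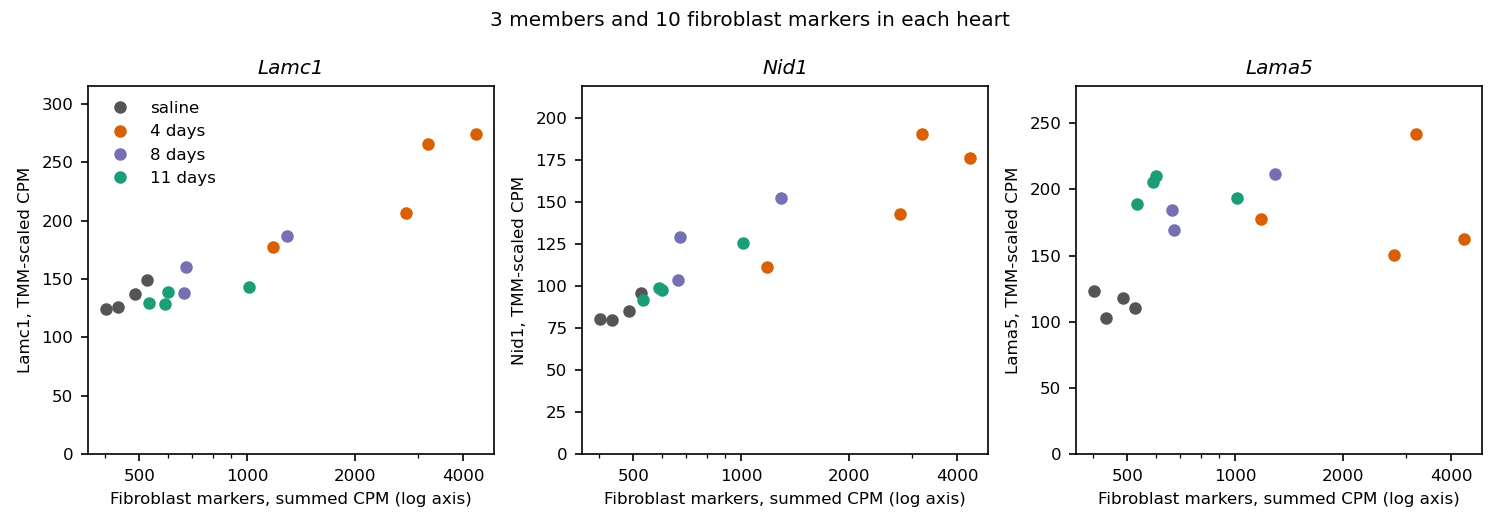
Lamc1, Nid1 and Lama5 against the summed level of 10 fibroblast markers. Each point is 1 heart coloured by group, with TMM-scaled CPM of the member on the vertical axis from 0 and the summed CPM on a log axis. For Lamc1 the 4-day hearts run from 177 CPM at a sum of 1183 CPM to 274 CPM at 4329 CPM, while the Lama5 points at 11 days lie at 189 to 210 CPM with sums of 532 to 1012 CPM.

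Among themselves the members varied together to unequal degrees over the 15 hearts. The 45 pairs had Pearson correlations of log2 CPM from -0.09 to 0.92 (median 0.57), highest for Lamc1 with Nid1 (0.92) and for Lama4 with Nid2 (0.89), and lowest for Lama4 with Lamb2 (-0.09). With group means removed the median was 0.49. These are descriptions over 15 hearts that share their groups and scaling. Of 8098 protein-coding genes with a mean of at least 5 CPM, those most like Lamc1 were Fndc1 (0.98), Col6a2 (0.98) and Adamts2 (0.98), and those most like Nid1 were Antxr1 (0.97), Mxra8 (0.96) and Myo5a (0.96). Most like Lama5 were Ehmt2 (0.94), Vps13c (0.93) and Exd2 (0.92). For Hspg2 they were Itga5 (0.97), Zyx (0.93) and Cd44 (0.93), for Lama4 Iqgap1 (0.96), Top2a (0.94) and Loxl2 (0.93), and for Agrn Rnf213 (0.91) and Gbp3 (0.91). For Lama2 they were Timp2, Zeb2 and Scrn1 (0.85 each), for Lamb1 Arpc1b (0.92), Dip2a (0.91) and Myh10 (0.91), for Lamb2 Denn2b (0.89), Trp53bp1 (0.82) and Golga2 (0.80), and for Nid2 Tnfrsf1a, Apaf1 and Iqgap1 (0.92 each).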

How the data were processed

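Total RNA of 15 mouse hearts was sequenced from TruSeq total RNA libraries. The tools named in the submitters' processing notes are cutadapt 4.1 for trimming, HISAT2 2.2.1 for alignment (build GRCm38.p6) and RSEM 1.3.3 for quantification. The authors deposited expected counts per gene and transcript, which are estimated counts and not normalized, FPKM computed from them with the effective length, and the percent of each gene's transcripts assigned to each isoform (IsoPct). Reads shared by transcripts are split by a model, which can move FPKM and isoform percent more than gene counts. The deposited effective lengths served as offsets in 1 alternative. The strand setting is not given in the sources used here.

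The 10 members, the lists of other genes and the alternatives were chosen with earlier results of these data known. Expected counts were rounded, the 26862 genes whose counts summed to 10 or more in the 15 libraries were tested, and libraries were scaled by TMM. Each pair of groups was fitted on its own with edgeR 4.0.16 (R 4.3.3, quasi-likelihood test, two-sided, Benjamini-Hochberg over all genes, threshold 0.05), and the 4 groups together with an F test. The standard error is the size of the log2 fold change over the square root of F, and 95% intervals use the t quantile at the test's degrees of freedom. Ratios and isoform shares were compared by exact permutation over hearts (numpy 2.4.6, scipy 1.17.1). Named genes were all members and, from each other list, up to 4 with the smallest p among those called, or all of a short list, and the likeness lists took the 3 genes of highest Pearson correlation. Alternatives were other scalings and filters, DESeq2 1.42.0, limma 3.58.1 voom, length offsets, robust dispersions, all groups in one fit, the replicate letter as a block, and each library left out. The test was also tried on simulated data. Coordinates and transcript names came from GENCODE M21, whose identifier was older than in the files for 3 members. Groups held 3 or 4 hearts, and depth was 25404162 to 117777005 expected counts per library. A few genes of the other lists and of the likeness lists are not reported here.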

Additional observations from a re-analysis of the deposited data

Results flagged for a closer look

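The level of 5 members differed between the 11-day and the 4-day hearts, by edgeR's test of the difference itself. The log2 differences were -0.54 for Lama4, -0.78 for Lamc1, -0.59 for Nid1, -0.65 for Nid2 and -0.66 for Hspg2. The saline hearts are in neither group. By the same test 7 of 10 fibroblast, 7 of 8 activated fibroblast and 8 of 10 macrophage markers were also lower at 11 days, against 6.55% of all genes. So were 6 of 8 basement membrane collagens. Of the other markers, 2 of 10 mural, 2 of 6 Schwann cell, 1 of 10 cardiomyocyte, 0 of 10 endothelial and 0 of 6 epicardial markers were lower. The part of any cell type in the differences of the members was not tested. No heart stood apart from its group by Dixon's test in the 30 groups of 4 hearts examined, and chance marks about 1 in 20.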

How the results depend on the processing

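Lama5 at 4 and 11 days, and Lamc1 and Nid1 at 4 days, kept their calls in every alternative run. At 4 days 7 members were called, in place of 4, with library size only and with limma voom. Over all genes those settings called 2826 and 3101 at 4 days, in place of 2540. At 8 days library size only gave 0 in place of 2, and at 11 days DESeq2 gave 2 in place of 1. Calls over all genes for that 8-day and that 11-day setting are not given here. For 8 days against 4 days DESeq2 called 2 members, no filter gave 1 and the replicate block 1, and for 11 days against 8 days DESeq2 called 2 and no filter gave 1, each in place of 0. Over all genes, 8 days against 4 days had 518 calls with DESeq2, 663 with no filter, 425 with the replicate block, 535 with library size only, 273 with all groups in one fit, 135 with robust dispersions, 17 with length offsets, 9 with voom and 3 with the CPM filter, and 0 to 719 with 1 library left out (0 without 4-day D, 719 without 4-day B), in place of 67. For 11 days against 8 days these were 303, 297, 210, 82, 1, 124, 11, 3 and 4, and 3 to 114 with 1 library left out (3 without 11-day D, 114 without 8-day B), in place of 37.

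With 1 library left out at a time, the count of members called was 3 to 6 at 4 days, 1 to 2 at 8 days (1 when 8-day A, 8-day C or saline A was dropped), 1 to 2 at 11 days (2 without saline D), 0 to 2 for 8 days against 4 days (2 without 4-day B), 0 for 11 days against 8 days, 4 to 5 for 11 days against 4 days and 6 to 7 over the groups. Apart from 8 days against 4 days and 11 days against 8 days, calls over all genes in these runs are not given here. Whether the member counts followed the calls over all genes was not tested.

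Some values changed sign, none of them called. With effective lengths as offsets these were Lama2 at 4 days (-0.051) and 8 days (-0.072), Lamb2 (-0.039) and Nid2 (-0.19) at 8 days, and Agrn for 11 days against 4 days (0.0096). With library size only they were Lama4 at 8 days (-0.071), Lama2 at 11 days (0.053), and for 11 days against 4 days Lama5 (-0.023) and Lamb2 (-0.045). Hspg2 at 8 days was 0.015 with the library size without mitochondrial transcripts, 0.041 with voom and 0.0010 with the CPM filter. Lamc1 at 11 days was -0.011, -0.0012, -0.00050 and -0.0088 with that library size, DESeq2 size factors, DESeq2 and the CPM filter. With expected counts in place of FPKM the log2 ratio differences were -0.055 for Lama4 over Lama2 and -0.049 for Lamb1 over Lamb2 at 8 days, and 0.073 for Nid1 over Lamc1 at 4 days. Leaving out 1 library turned the sign of Lama4 (-0.041 to 0.058), Lamb1 (-0.072 to 0.14), Lamb2 (-0.0042 to 0.19) and Hspg2 (-0.17 to 0.063) at 8 days, of Lama2 (-0.097 to 0.024) and Lamc1 (-0.034 to 0.056) at 11 days, of Agrn for 11 days against 4 days (-0.085 to 0.054), and of the ratios of Lama4 to Lama2 at 8 days (-0.069 to 0.18) and of Nid1 to Lamc1 at 4 days (-0.096 to 0.0096). The causes were not tested.

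The hearts were treated as not paired by replicate letter. Over 21 same-letter pairs the deviations correlated from -0.29 to 0.25, 4 of them over 0.1. Over 63 pairs of unlike letters they correlated from -0.36 to 0.34, 18 of them over 0.1. Whether hearts of the same letter were handled together was not tested. With the replicate block the counts against saline stayed at 4, 2 and 1, and Lama4 at 8 days was -0.030.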
